A study of Mus musculus with 4 samples.

Results

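The Gimap genes encode the GTPases of immunity-associated proteins, and 8 of them, Gimap1, Gimap3, Gimap4, Gimap5, Gimap6, Gimap7, Gimap8 and Gimap9, were examined in the RNA-seq data of wild-type (WT) and Ets1-/- follicular B cells. They were chosen by their symbols and by being expressed, that is, by their FPKM values (fragments counted per length of the transcript and per size of the library), so their levels are given as a description. Of 23305 genes in each library, 8 have a symbol that starts with Gimap, and all 8 are included. All 8 were among the 10949 genes tested, those that averaged 1 FPKM or more in WT or in Ets1-/- libraries. The lowest of their 32 values was 34.4 FPKM, so none of them depended on this minimum.

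GIMAP proteins share a guanine nucleotide-binding domain, and several are anchored to membranes inside the cell. They are known mainly from lymphocytes, where they act in survival and in the upkeep of the resting state. Mice without Gimap1 or Gimap5 lose mature lymphocytes, and for other members much less is known in B cells. Ets1 is a transcription factor of lymphocytes that binds DNA at sequences with a GGAA core, and B cells that lack it differentiate too readily into antibody-secreting cells.

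RNA was sequenced from 4 libraries, 2 biological replicates for each of 2 genotypes. The cells were splenic B cells of female mice, sorted as B220+, CD23 high and CD21 low, with dead cells gated out. They were also negative for the activation marker CD80 and for IgG1, IgG2a, IgG2b, IgG3, IgA and IgE. WT libraries came from C57BL/6 mice that were purchased, and Ets1-/- libraries from mice of a mixed C57BL/6 x 129Sv background bred by the authors, since Ets1-/- pups of the inbred C57BL/6 strain do not survive. Genotype, strain and breeding source therefore change together and cannot be told apart, and Ets1 was missing from all cells of the mice, not B cells alone. Ages and whether mice were pooled are not given in the sources used here. The values for Ets1 itself, 231 and 275 FPKM in WT against 229 and 229.8 FPKM in Ets1-/- libraries, did not check the labels, since a whole-gene value does not resolve the disrupted part.

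Genes that define B cells had high values in all 4 libraries. Cd79a and Cd79b, the signalling chains of the B cell receptor, lay between 1336 and 2051 FPKM, and Pax5, the transcription factor of B cell identity, between 201 and 269 FPKM. Neutrophil genes stood apart, since the summed FPKM of 8 of them was 92.3 and 111 in WT but 2555 and 699 in Ets1-/- replicates 1 and 2. Set against WT replicate 1, the smallest steps of low values gave an approximate relative depth of 0.850 to 1.71 for the other 3 libraries, and the files hold no read numbers.

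The 8 genes lie together on chromosome 6 of mm9, between 48597233 and 48716518, a stretch of 119 kb. By their annotated starts the order is Gimap8, Gimap9, Gimap4, Gimap6, Gimap1, Gimap7, Gimap5 and Gimap3. The mm9 entry of Gimap1 is long, from 48668606 to 48702599, so that it spans Gimap7 and reaches into Gimap5. In the RefSeq promoters (build GRCm38.p6) Gimap7, at 48718371, comes before Gimap1, at 48738797. Gimap6 and Gimap3 are on the minus strand and the other 6 on the plus strand. The sequence before the start of transcription is shown for the 3 genes with the largest differences between genotypes, Gimap4, Gimap6 and Gimap9, and for Gimap7, which had the smallest. Each is the 250 bases before the start in RefSeq (build GRCm38.p6), read 5′ to 3′ on the strand of the gene, at chr6:48684328-48684577 (plus), chr6:48708245-48708494 (minus), chr6:48675885-48676134 (plus) and chr6:48718371-48718620 (plus). Capitals mark the letters CGGAAG or AGGAAG, which hold the GGAA core bound by Ets factors, and TGTGGT, a core of Runx factors, on either strand.
Gimap4: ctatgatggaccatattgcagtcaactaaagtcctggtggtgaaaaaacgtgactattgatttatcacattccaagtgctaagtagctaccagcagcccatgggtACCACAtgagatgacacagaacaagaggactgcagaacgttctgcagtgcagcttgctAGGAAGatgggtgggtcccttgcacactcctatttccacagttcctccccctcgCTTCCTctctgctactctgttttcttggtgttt
Gimap6: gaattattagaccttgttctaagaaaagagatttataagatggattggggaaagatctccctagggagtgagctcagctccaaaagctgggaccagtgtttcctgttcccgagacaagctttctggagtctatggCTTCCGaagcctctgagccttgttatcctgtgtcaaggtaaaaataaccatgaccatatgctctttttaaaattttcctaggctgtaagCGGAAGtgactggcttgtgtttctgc
Gimap9: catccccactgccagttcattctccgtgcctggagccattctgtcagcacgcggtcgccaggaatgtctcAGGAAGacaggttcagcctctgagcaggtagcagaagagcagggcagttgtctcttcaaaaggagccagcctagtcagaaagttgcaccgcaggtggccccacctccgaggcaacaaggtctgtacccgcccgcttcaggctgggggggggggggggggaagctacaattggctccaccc
Gimap7: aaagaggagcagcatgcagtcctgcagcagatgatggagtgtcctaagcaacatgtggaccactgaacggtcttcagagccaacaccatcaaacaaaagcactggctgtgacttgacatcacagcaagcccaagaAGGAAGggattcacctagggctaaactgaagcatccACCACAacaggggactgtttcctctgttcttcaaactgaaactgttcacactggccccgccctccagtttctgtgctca

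In the Gimap4 sequence AGGAAG stands 87 bases before the start on the strand of the gene, and again on the opposite strand from 33 bases before it. The Gimap6 sequence has CGGAAG 26 bases before the start, and on the opposite strand from 115 bases before it. Gimap9 and Gimap7 each have AGGAAG, 180 and 115 bases before the start. The letters of the Runx core are in the Gimap4, Gimap7 and Gimap1 sequences. RefSeq gave 9 promoters for the 8 genes, and each of the 8 genes has at least 1 with CGGAAG or AGGAAG, letters that 39.2% of all 32851 promoters hold in the same window. CGGAAG alone is in 3 of the 8 genes and in 13.6% of all promoters, AGGAAG in 7 of the 8 and in 29.5%, and TGTGGT in 3 of the 8 and in 14.0%. The letters are present in Gimap7 as well as in Gimap4, so these letters do not separate the member with the smallest difference from the one with the largest. These are matches of letters, and binding was not analysed here.

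**Figure D1:**
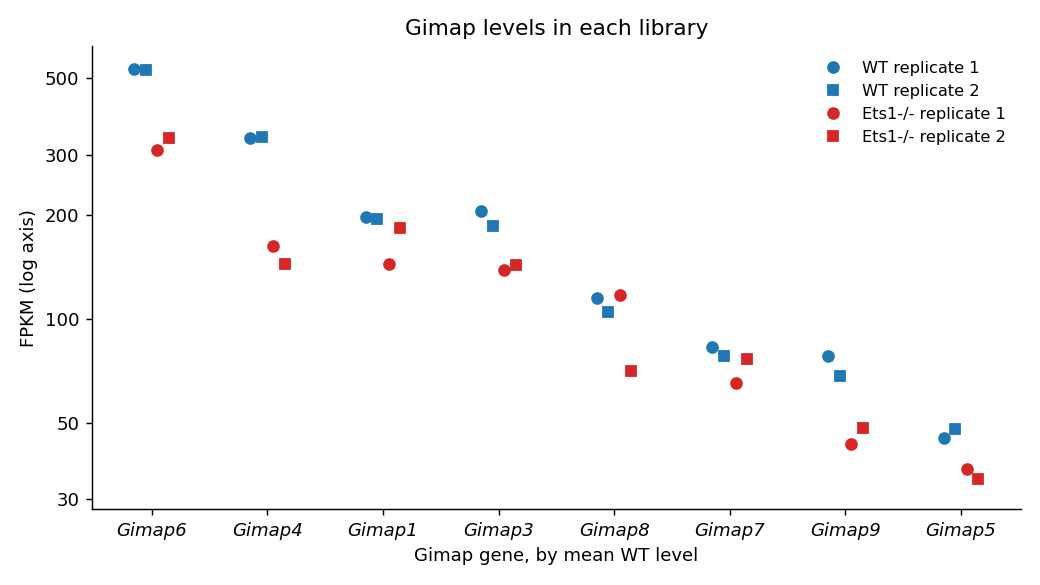
FPKM of the 8 Gimap genes (log axis) in each of the 4 libraries, ordered by mean WT level. WT points (blue) lie above Ets1-/- points (red) for 7 genes, with the widest gap at Gimap4, and the points overlap at Gimap8.

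Gimap RNA was abundant in the WT cells. Gimap6 had the highest mean, 529.8 FPKM, which placed it 184th of 23305 genes, and Gimap5 the lowest, 46.5 FPKM, in place 1941. From high to low the WT order was Gimap6, Gimap4, Gimap1, Gimap3, Gimap8, Gimap7, Gimap9 and Gimap5. Gimap1, at 196.5 ± 1.77 FPKM (SD, n = 2), and Gimap3, at 195.7 ± 14.0 FPKM (SD, n = 2), did not differ beyond their spread, and the 2 replicates of all other neighbours in this order lay apart. FPKM is a level per length, which allows this comparison between genes. In Ets1-/- cells Gimap4 stood behind Gimap1, and the values of these 2 genes overlapped, as did those of Gimap8 and Gimap7.

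The 8 values added up to 1588 and 1546 FPKM in the WT libraries and to 1019 and 1035 FPKM in the Ets1-/- libraries. The mean sum was thus 34.5% lower in Ets1-/- cells, and the 2 genotypes lay far outside each other's spread. Gimap6 accounted for 38.5% of this difference and Gimap4 for 33.6%. The share of Gimap6 in the family sum was 33.4% and 34.2% in WT and 30.4% and 32.3% in Ets1-/- libraries, and that of Gimap1 was 12.5% and 12.6% in WT and 14.2% and 17.7% in Ets1-/- libraries. In these bulk samples fewer cells of a type and less RNA per cell cannot be told apart.

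Differences between genotypes were estimated with limma on log2(FPKM + 1) over all 10949 genes, and a gene was called if its log2 fold change was 1 or more in either direction with a Benjamini-Hochberg adjusted p of 0.05 or less. Of the 8 Gimap genes 1, Gimap4, was called lower in Ets1-/- cells, against 0.822% of all genes tested. At an unadjusted p under 0.05, 5 of the 8 were lower, namely Gimap3, Gimap4, Gimap5, Gimap6 and Gimap9, against 6.95% of all genes, and none was higher. In 7 of the 8 both Ets1-/- values lay below both WT values, which held for 22.2% of all genes. The median log2 fold change was -0.42 over the 8 genes and -0.02 over all genes tested. The family was taken up with earlier results of these data known, so these counts describe it.

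**Figure D2:**
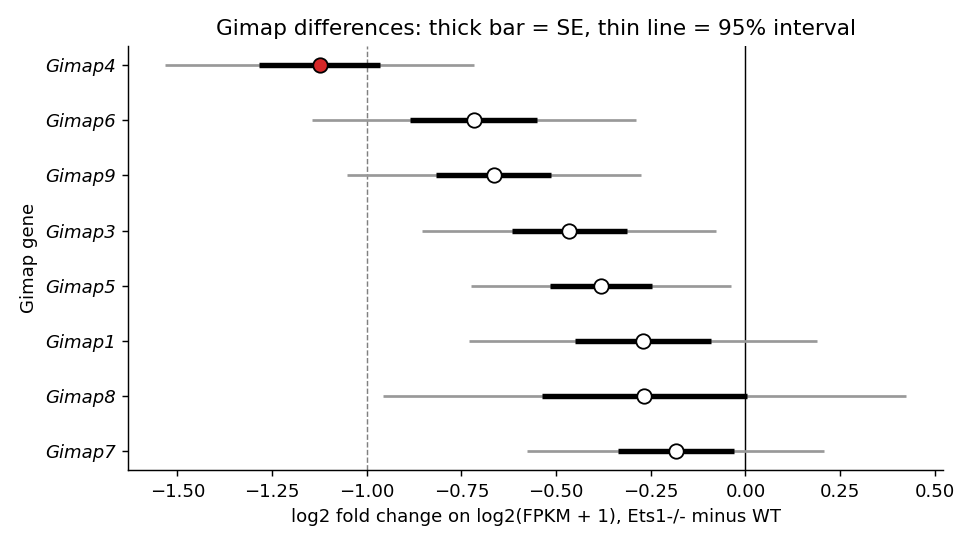
Log2 fold change (Ets1-/- minus WT, on log2(FPKM + 1)) of each Gimap gene with its standard error (thick bar) and 95% interval (thin line) from limma, n = 2 libraries per genotype. The dashed line is a 2-fold decrease, the filled point is the 1 gene called, Gimap4 at -1.12, and the intervals of Gimap1, Gimap7 and Gimap8 include 0.

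Gimap4, which is best known for a part in T cell death, was at 333.9 and 336.3 FPKM in WT and at 162.9 and 144.1 FPKM in Ets1-/- libraries. The WT replicates were nearly equal, and both Ets1-/- values were far below them. Gimap4 fell by 1.12 on the log2 scale (SE 0.16, 95% interval -1.53 to -0.72, adjusted p = 0.0487 from limma), to a mean of 45.8% of the WT mean. The call is marginal. It was lost after upper-quartile scaling (adjusted p = 0.0600 from limma), without the filter on low values (adjusted p = 0.0685 from limma) and when any 1 library was left out (adjusted p = 0.0851 to 0.212 from limma), while the log2 fold change stayed between -1.21 and -1.04 throughout.

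Gimap6, whose protein binds a member of the ATG8 family of autophagy proteins, had an FPKM of 530.4 and 529.2 in WT and of 309 and 335 in Ets1-/- libraries. Its level was 39.2% lower by the means, without overlap. The log2 fold change of -0.72 (SE 0.17, 95% interval -1.14 to -0.29) had an adjusted p of 0.139 from limma and was not called. Gimap9 was at 78.0 and 68.1 FPKM in WT and at 43.3 and 48.1 FPKM in Ets1-/- libraries, again without overlap. Its log2 fold change was -0.66 (SE 0.15, 95% interval -1.05 to -0.28, adjusted p = 0.134 from limma). Gimap9, Gimap4 and Gimap6, the 3 members with the largest differences, are direct neighbours in the cluster, with starts 28.9, 37.3 and 54.3 kb after that of Gimap8.

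Gimap3 and Gimap5 encode membrane-anchored relatives, and Gimap5 is required for the survival of peripheral T cells. Gimap3 was at 206 and 186 FPKM in WT and at 139 and 144 FPKM in Ets1-/- libraries. Gimap5 was at 45.1 and 47.9 FPKM in WT and at 36.5 and 34.4 FPKM in Ets1-/- libraries. Both genes were lower without overlap, with log2 fold changes of -0.46 (SE 0.15) and -0.38 (SE 0.13) that were not called (adjusted p = 0.264 and 0.311 from limma). They are also the only members that share long exact stretches of exon sequence in mm9, since 22.9% of the 50-base stretches of the Gimap3 exons also occur in Gimap5, and 8.81% of those of Gimap5 in Gimap3. Reads from such stretches can be split between the 2 genes, so their separate values are less certain than their direction, which was the same. No other member shared a 50-base stretch at another position.

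For Gimap1 and Gimap7 the differences were small against their errors. Gimap1, without which mature B and T cells are lost in mice, had an FPKM of 197.8 and 195 in WT and of 145 and 183 in Ets1-/- libraries. The second Ets1-/- replicate was close to WT, and the log2 fold change of -0.27 (SE 0.18) had a 95% interval from -0.73 to 0.19 (adjusted p = 0.657 from limma). Gimap7 was at 82.7 and 78.0 FPKM in WT and at 65.2 and 76.4 FPKM in Ets1-/- libraries, with a log2 fold change of -0.18 (SE 0.15, 95% interval -0.58 to 0.21, adjusted p = 0.746 from limma). For both genes these intervals include no difference and exclude a 2-fold decrease. The exons of annotated Gimap1 transcripts overlap those of Gimap7 over 81 bases and those of Gimap5 over 109 bases on the same strand, and reads from there cannot be assigned to 1 gene. An antisense gene, Gm3345, overlaps Gimap1 as well, and without strand information its reads cannot be told apart from those of Gimap1.

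Gimap8, the member with several GTPase domains, was at 114.7 and 105.0 FPKM in WT and at 118 and 70.4 FPKM in Ets1-/- libraries. It was the 1 member whose genotypes overlapped, because Ets1-/- replicate 1 lay above both WT libraries and replicate 2 below them. The higher Ets1-/- value was 1.67 times the lower, against at most 1.27 times for the other 7 genes. Its log2 fold change of -0.27 (SE 0.27, adjusted p = 0.812 from limma) became 0.10 when Ets1-/- replicate 2 was left out, so no direction is given.

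Within each library the ratio between members does not depend on scaling between libraries. The ratio of Gimap4 to Gimap7 was 4.04 and 4.31 in WT and 2.50 and 1.89 in Ets1-/- libraries. Gimap4 to Gimap6 gave 0.630 and 0.635 in WT and 0.526 and 0.430 in Ets1-/- libraries, and Gimap6 to Gimap1 gave 2.68 and 2.71 in WT and 2.14 and 1.83 in Ets1-/- libraries. For each of these pairs both Ets1-/- ratios lay below both WT ratios. These pairs were picked after their values were seen, with the member of the larger decrease set over the other, which fixed the direction. Whether the members differed in the same proportion was not tested.

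**Figure D3:**
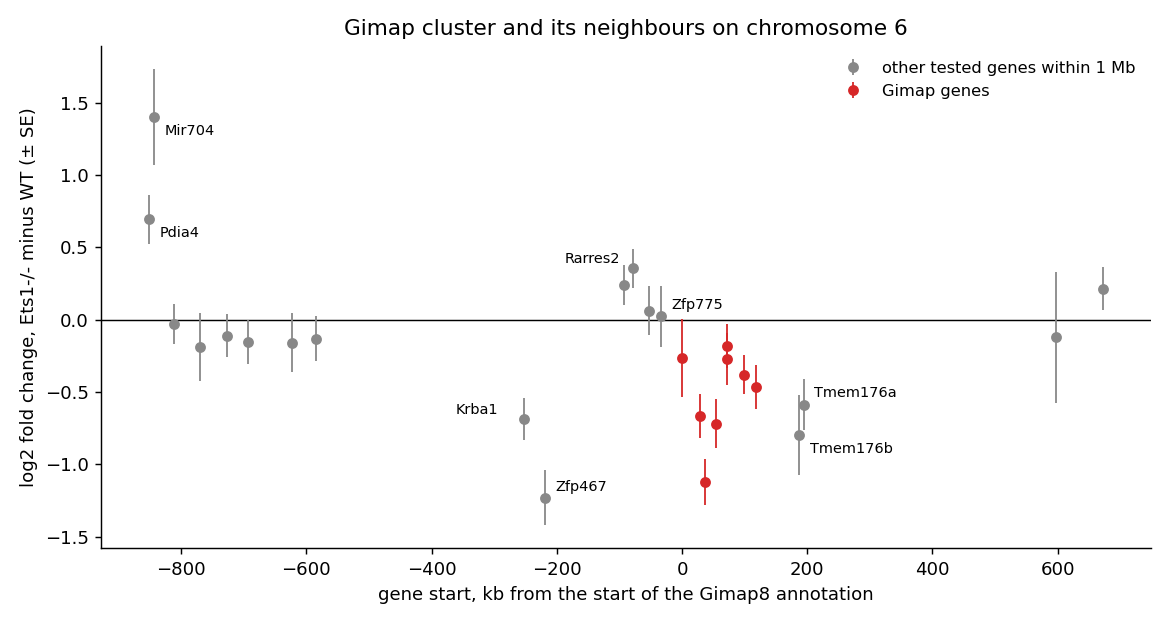
Log2 fold change (Ets1-/- minus WT, ± SE) of the 8 Gimap genes (red) and of 18 other tested genes within 1 Mb (grey), against the distance of the gene start from that of Gimap8 in kb. The nearest tested neighbours differ, with Zfp775 at 0.02 and Tmem176b at -0.80.

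Since the Ets1-/- mice carried a second strain's chromosomes in part, the genes around the cluster were examined as well. Of 30 other genes within 1 Mb of the cluster, 18 were tested. Limma called 0 of them lower and 0 higher, against 0.822% and 0.877% of all genes tested. At an unadjusted p under 0.05, 4 of the 18 were lower and 3 higher, against 6.95% and 6.39% of all genes tested. Their median log2 fold change was -0.12. The nearest tested gene before the cluster, Zfp775 at 24.0 kb, encodes a zinc finger protein and was at 2.76 and 2.85 FPKM in WT and at 2.25 and 3.59 FPKM in Ets1-/- libraries. Its values overlapped, and its log2 fold change was 0.02 (SE 0.21).

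On the other side, Tmem176b at 67.3 kb and its neighbour Tmem176a encode paired membrane proteins of antigen-presenting cells. Tmem176b was at 6.23 and 4.28 FPKM in WT and at 1.88 and 3.40 FPKM in Ets1-/- libraries, with a log2 fold change of -0.80 (SE 0.28, adjusted p = 0.301 from limma). Tmem176a had a log2 fold change of -0.59 (SE 0.18, adjusted p = 0.227 from limma). The other 2 lower genes were Krba1 and Zfp467, with log2 fold changes of -0.69 and -1.23, and the 3 higher ones were Rarres2, Pdia4 and Mir704, a microRNA gene inside the Pdia4 locus whose FPKM rests on a very short length. Lower genes thus lay on both sides of the cluster, and genes near 0 or above it lay between Zfp467 and Gimap8. Whether strain differences within the cluster affect the mapped reads was not tested.

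**Figure D4:**
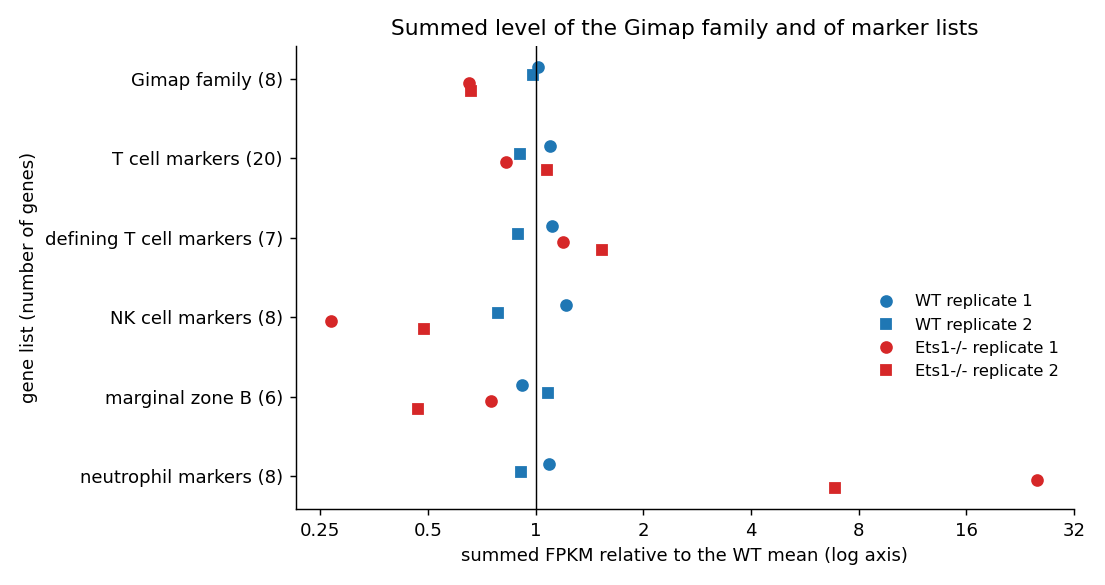
Summed FPKM of the Gimap family and of marker lists in each library, divided by the mean of the WT libraries (log axis). Both Ets1-/- libraries are at 0.650 and 0.660 for the Gimap family and at 25.2 and 6.89 for neutrophil markers. They are at 0.825 and 1.07 for all 20 T cell markers, and at 1.19 and 1.54 for the 7 defining T cell markers.

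Gimap genes are abundant in T cells and NK cells too, so markers of these cells were read beside them. Of 20 T cell markers, all above 0 in every library, 1, Thy1, was called lower, against 0.822% of all genes tested. None was called higher, against 0.877%. The median log2 fold change of the 20 was -0.06, and 13 were below 0. In 8 both Ets1-/- values lay below both WT values, against 22.2% of all genes. In 3 both lay above, and the share over all genes was not computed for that direction. At an unadjusted p under 0.05, 2 were lower, Thy1 and Il7r (log2 fold change -0.79, SE 0.23), against 6.95% of all genes. At that level 1 was higher, Cd247, against 6.39%. The summed level of the 20 was 232 and 192 FPKM in WT and 175 and 227 FPKM in Ets1-/- libraries, which overlapped. The 7 defining markers Cd3d, Cd3e, Cd3g, Cd247, Cd4, Cd8a and Bcl11b added up to 68.7 and 55.2 FPKM in WT and to more, 74.0 and 95.2 FPKM, in Ets1-/- libraries. Of these, only Cd247 and Cd3g were higher without overlap. Cd247 was at 9.77 and 7.30 FPKM in WT and at 15.3 and 23.7 FPKM in Ets1-/- libraries. Cd8a was lower without overlap, and Cd3d, Cd3e, Cd4 and Bcl11b overlapped. The ratio of Gimap4 to Cd3e was 43.8 and 50.4 in WT and 21.5 and 18.6 in Ets1-/- libraries. As Cd3e itself overlapped between genotypes, this ratio mainly repeats the Gimap4 values. A marker that was lower in Ets1-/- libraries, such as Il7r, would give a different picture. The part of T cell RNA in the Gimap difference was not tested.

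Thy1, a surface glycoprotein of T cells, was at 17.4 and 16.2 FPKM in WT and at 3.38 and 3.39 FPKM in Ets1-/- libraries (log2 fold change -2.02, SE 0.14, adjusted p = 0.00658 from limma). Thy1 and the Cd3 genes lie on chromosome 9, 11.4 Mb and 12.3 to 12.4 Mb from Ets1. Among the T cell markers with the highest WT level, Lck, the kinase of the T cell receptor, was at 49.4 and 40.4 FPKM in WT and at 27.2 and 40.0 FPKM in Ets1-/- libraries. Lat, an adaptor of the same receptor, and Tcf7, a T cell transcription factor, had log2 fold changes of -0.23 (SE 0.20) and -0.07 (SE 0.21).

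The RNA of NK cell markers was low, and its sum was lower in Ets1-/- libraries. The summed level of 8 NK markers was 32.5 and 21.1 FPKM in WT and 7.18 and 13.1 FPKM in Ets1-/- libraries. In 7 of the 8 both Ets1-/- values lay below both WT values, against 22.2% of all genes tested. At an unadjusted p under 0.05, 6 were lower, against 6.95% of all genes. Limma called 0 of the 8, against 0.822% of all genes called lower. Ncr1, an activating receptor that defines NK cells, was at 2.42 and 0.957 FPKM in WT and at 0.0224 and 0.128 FPKM in Ets1-/- libraries. Eomes went the other way, at 0.829 and 0.922 FPKM in WT and at 1.15 and 1.22 FPKM in Ets1-/- libraries. Klrb1c, Klre1, Klrd1 and Klrk1 lie close together on chromosome 6, between 128728503 and 129573882. Since genotype and strain change together, these may not be separate readings of NK cell RNA. The part of NK cell RNA in the Gimap difference was not tested.

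For 6 genes of marginal zone B cells, which a gate on low CD21 should leave out, the sum was 202 and 237 FPKM in WT. In Ets1-/- libraries it was 165 and 103 FPKM. Only Cr2 and Dtx1 were lower without overlap. Cd1d1, Cd9 and S1pr3 overlapped, and Myof was higher in both Ets1-/- libraries (log2 fold change 0.71, SE 0.30). None of the 6 was called by limma, against 0.822% of all genes called lower. Of the 6, 2 were lower at an unadjusted p under 0.05, against 6.95% of all genes. Cr2, which encodes CD21, had a log2 fold change of -1.28 (SE 0.37, adjusted p = 0.216 from limma), and the part of these cells in the Gimap difference was not tested. Of 8 neutrophil genes 3, Ngp, Ltf and Camp, were called higher, against 0.877% of all genes, and all 8 were higher at an unadjusted p under 0.05, against 6.39% of all genes. Without Ets1-/- replicate 1, the library with the most neutrophil RNA, the log2 fold change of Gimap4 was -1.21 and the family median -0.52. In that fit Gimap8 was at -0.63 and Gimap5 at -0.42. Gimap1, Gimap3, Gimap6, Gimap7 and Gimap9 had smaller decreases than with all libraries. Leaving out Ets1-/- replicate 2 instead gave a family median of -0.46. Ets1-/- replicate 2 still held 6.89 times the WT neutrophil sum, and the part of neutrophil RNA in the Gimap difference was not tested. Of 10 endothelial genes 9 were under 1 FPKM in every library, and Pecam1, the other one, was at 92.3 and 82.8 FPKM in WT and at 67.8 and 86.5 FPKM in Ets1-/- libraries.

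GIMAP proteins are known to act with BCL2 family proteins, with the ATG8 proteins of autophagy and with the kinase GSK3B. A list of 17 genes held these partners and also Sqstm1, Atg5, Atg7 and Ctnnb1. All 17 were tested, and their median log2 fold change was 0.18. Limma called 0 lower and 0 higher, against 0.822% and 0.877% of all genes tested. The 1 gene with an unadjusted p under 0.05 was higher, while 6.39% of all genes tested were higher at that level. This was Bcl2, the survival protein, at 28.7 and 27.9 FPKM in WT and at 45.8 and 36.6 FPKM in Ets1-/- libraries (log2 fold change 0.52, SE 0.16, adjusted p = 0.247 from limma). Gabarapl2, the ATG8 protein that GIMAP6 binds, had a log2 fold change of 0.36 (SE 0.18, adjusted p = 0.537 from limma), and Gsk3b one of -0.13 (SE 0.15).

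The guanylate-binding proteins and immunity-related GTPases, another family of immune GTPases, were set beside the Gimap genes. Of 16 such genes 12 were tested. Limma called 0 lower and 0 higher, against 0.822% and 0.877% of all genes tested. Only 1, Gbp2, had an unadjusted p under 0.05 and was higher, against 6.39% of all genes higher at that level. Gbp2, an interferon-induced GTPase of host defence, was at 9.18 and 9.07 FPKM in WT and at 19.4 and 26.9 FPKM in Ets1-/- libraries, with a log2 fold change of 1.24 (SE 0.19, adjusted p = 0.0562 from limma). The median of this family was 0.01, with 4 of 12 genes below 0, against -0.42 and 8 of 8 for the Gimap genes, where Gimap8 changed sign without Ets1-/- replicate 2.

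The genes whose values over the 4 libraries lay nearest to the mean profile of the 8 Gimap genes were Khsrp, BC035044, Zbtb25, Lpcat1 and Rassf2. Likeness was measured as the Euclidean distance between log2(FPKM + 1) values centred on the mean of each gene, among 6537 genes with a mean of at least 10 FPKM. These 5 genes lay at distances of 0.0403 to 0.0586, while Gimap3, the nearest member, lay at 0.0874 and Gimap4, the farthest, at 0.627. Their log2 fold changes were between -0.54 and -0.49, and none was called. Khsrp was at 36.3 and 35.6 FPKM in WT and at 24.9 and 25.4 FPKM in Ets1-/- libraries. With 3806 of the 6537 genes nearer to the mean profile than Gimap4, a likeness over 4 libraries is a weak description.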

How the data were processed

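RNA-seq of 4 libraries of sorted splenic follicular B cells, 2 WT and 2 Ets1-/-, was analysed. Per the labels, the authors aligned reads to mm9 with TopHat2 2.0.13 and used Cuffdiff, and they deposited 1 FPKM value per gene symbol and library. The annotation and any scaling between libraries are not given in the sources used here. FPKM values depend on the gene length used and hold no read numbers, so no count test was run. Of 23309 entries, 4 with repeated symbols were left out.

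Linear models were fitted across all genes with limma 3.58.1 in R 4.3.3 (lmFit, eBayes with a trend) on log2(FPKM + 1) for genes averaging 1 FPKM or more in WT or in Ets1-/- libraries, and the scripts were tested on simulated data. P-values were adjusted by Benjamini-Hochberg over 10949 genes, and intervals are 95% intervals of the moderated statistic. With 2 libraries against 2, no permutation test of 1 gene can pass 0.05, so none was made. Positions and exons came from GENCODE M1 (mm9), promoters from RefSeq (GRCm38.p6). By rule, the genes named are the 8 members, list members that were called, the 3 T cell markers highest in WT, the nearest tested neighbour on either side, and the 5 genes most like the family. Cd247, Cd3g, Cd8a, Il7r, Ncr1, Eomes, the Klr genes, the marginal zone B cell genes and Pecam1 were named after their values were seen. So were Bcl2, Gabarapl2, Gsk3b, Gbp2 and the other neighbours. A listed gene and the sums that hold it are not reported here. The members and lists were chosen with earlier results of these data known.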

Additional observations from a re-analysis of the deposited data

How the results depend on the processing

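Log2 fold changes of the Gimap genes could not move in several of the 12 alternatives. These were no filter on low values, robust variance, no 2-fold minimum and both replicate blocks. In the others, the log2 fold changes of 7 Gimap genes stayed below 0. The exception was Gimap8, which ranged from -0.63 without Ets1-/- replicate 1 to 0.10 without Ets1-/- replicate 2. The family median stayed between -0.52 and -0.38. The single Gimap call, Gimap4, became 0 calls without a filter on low values, with upper-quartile scaling, with the replicate block (adjusted p = 0.0524) and in each fit that left out 1 library (0 to 0), where a lone library is assumed to vary like the other genotype. Deviations of same-numbered libraries from their genotype means had a weak correlation across genes of -0.21. The sources used here describe no pairing of the samples. Over all genes, 90 were lower and 96 higher, against 38 and 37 without the filter, 140 and 165 with robust variance, 112 and 154 with the replicate block, and 42 to 71 and 61 to 88 with 1 library left out (42 without Ets1-/- replicate 2, 61 without WT replicate 1). With the crossed replicate block, chosen after seeing the data, 165 and 244 genes were called, and 1 Gimap gene. Of the chromosome 6 neighbours, 1 was called lower with robust variance, 1 lower and 1 higher with the replicate block and with the crossed one, and 0 to 1 higher with 1 library left out. The cause of these shifts was not tested. The authors give a range of reads per sample but no number for each library. The depth of each library was therefore only roughly estimated, relative to 1 library, and 2 libraries per genotype limit the precision.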
